A study of Mus musculus with 8 samples.

Results

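Livers of mice that lacked MET and were fed an EGFR inhibitor were compared with control livers 5 days after the mitogen TCPOBOP, using 1 array of pooled liver RNA from each arm. These 2 arrays, out of 8 in the series, were chosen by their labels alone, with every probe set read. The control arm was made up of littermates with the genotype METfl/fl: TamCre+/+ that were injected with corn oil. The MET KO + EGFRi arm had the same genotype, received 5 injections of tamoxifen (100 µl at 10 mg/ml) to delete Met, and ate canertinib, an inhibitor of the EGFR family, at an intended 80 mg/kg/day from 1 day before TCPOBOP. Both arms carried the floxed Met alleles and the tamoxifen-dependent Cre, and both received TCPOBOP once by gavage at 3 mg/kg, at least 5 days after the last tamoxifen. Tamoxifen and canertinib were given only to the MET KO + EGFRi arm, so their own effects cannot be told apart from those of losing MET and EGFR. Deletion and inhibition were systemic, so cells other than hepatocytes could also be affected. The other 6 arrays are the same 2 arms at days 0, 1 and 2. The labels give no age, sex or number of mice per pool, and do not say whether the mice of day 0 were given TCPOBOP.

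TCPOBOP activates the constitutive androstane receptor (CAR), a nuclear receptor that switches on drug-metabolising enzymes in hepatocytes and makes mouse liver grow without injury. MET binds hepatocyte growth factor and EGFR binds the epidermal growth factor family, and both are receptor tyrosine kinases that promote hepatocyte division and survival. Hepatocytes entering the cell cycle make the DNA replication machinery first and the mitotic machinery after it, and both sets of transcripts decline again when the cells leave the cycle. The comparison at day 5 asks how the arms stood at the latest time sampled after the mitogen. With 1 array per arm there is no replicate, no spread between animals can be measured, and no p-value was computed for a difference at day 5. In bulk liver RNA, fewer cells of a type and less RNA per cell cannot be told apart.

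Signals are the deposited MAS5 values on a linear scale. Below, 4 signals of an arm always run over days 0, 1, 2 and 5. A log2 difference is the MET KO + EGFRi value minus the control value after adding 71 to each signal, so that it is positive where the MET KO + EGFRi array was higher and it understates the change of weak genes. The median signal was 243 on the control array of day 5 and 241 on the MET KO + EGFRi array, within the range of 224 to 251 over all 8. The ratio of the 3′ to the 5′ actin control probe set, a sign of RNA quality, was 1.69 and 2.36 on the day 5 arrays, the latter the highest of the 8, and its part in the differences below was not tested. The same ratio for Gapdh was 0.818 and 0.878. Alb, which encodes albumin and marks hepatocytes, had a signal of 77082 and 69876 at day 5. Met had signals of 1444, 926, 1336 and 1149 (control) and 1502, 1049, 2034 and 1358 (MET KO + EGFRi), and its other probe set above the filter had 786, 561, 359 and 531 (control) and 639.5, 532, 650 and 389 (MET KO + EGFRi), so the day 5 difference was 0.23 on one and -0.39 on the other. Where these probes lie relative to the deleted part of Met is not given in the sources used here, so they do not check the deletion.

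At day 5, 272 of 12112 genes were at least 2-fold higher on the MET KO + EGFRi array (2.25%) and 262 were at least 2-fold lower (2.16%). The same counts gave 2.64% higher and 2.18% lower at day 0, 2.89% and 2.63% at day 1, and 2.88% and 2.03% at day 2. Of all genes, 5892 were higher by any amount at day 5 (48.6%) and 6216 were lower. The median log2 difference over all genes was -0.011 at day 5, and the median absolute difference was 0.25, against 0.25, 0.25 and 0.27 on the earlier days. Of the genes 2-fold higher at day 5, 29 were 2-fold higher on all 4 days and 178 on day 5 alone. Of those 2-fold lower, 8 were so on all 4 days and 190 on day 5 alone. The genes 2-fold higher at days 2 and 5 numbered 56, which is 20.6% of the day 5 genes and 16% of the day 2 genes. Where a 2-fold higher gene had other probe sets above the filter, 67 of 91 were also higher and 20 were 2-fold higher. For the 2-fold lower genes, 52 of 78 were lower and 14 2-fold lower.

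**Figure D1:**
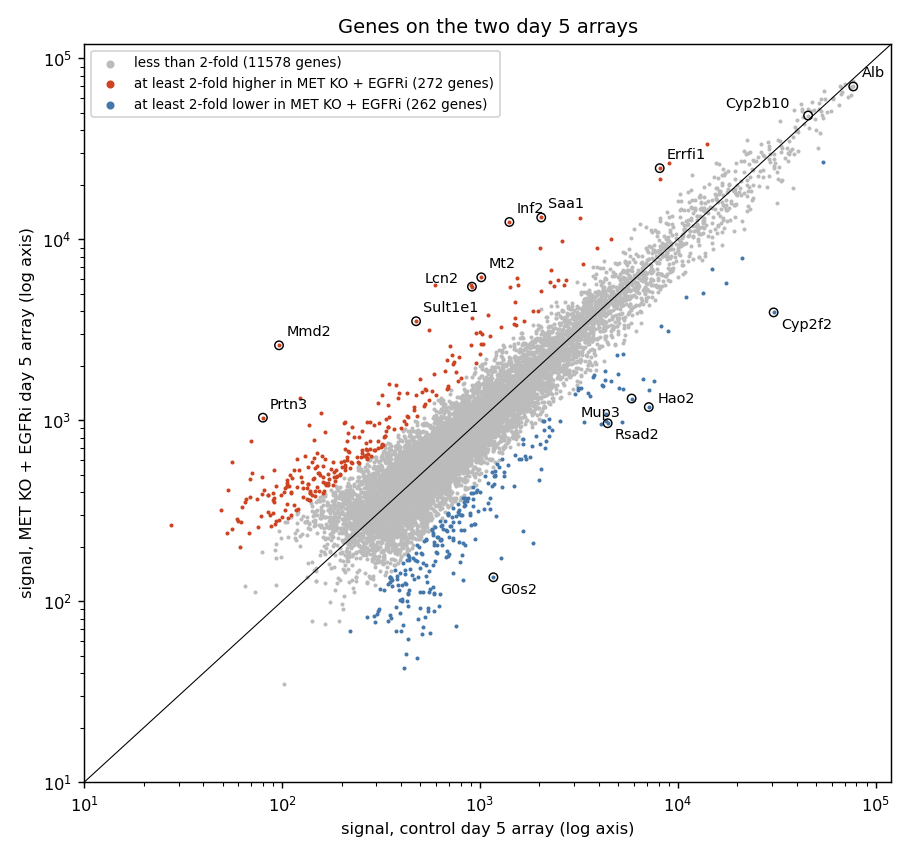
Signal of each of 12112 genes on the control day 5 array (horizontal, log axis) against the MET KO + EGFRi day 5 array (vertical, log axis), with genes at least 2-fold apart in colour after adding 71 to each signal and the line of equal signal in black. Most genes lie along the line, with Mmd2, Inf2, Saa1, Lcn2 and Mt2 above it and Cyp2f2, Hao2, Rsad2 and G0s2 below it.

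Acute phase proteins, which the liver secretes in response to inflammatory cytokines, were the list with the highest median at day 5 among those plotted by day. Of 29 genes kept of 31 listed, 24 were higher in MET KO + EGFRi livers, 12 of them at least 2-fold (against 2.25% of all genes), and 1 was 2-fold lower. The median log2 difference of the list was 0.65, after 0.98, 0.97 and 0.76 on days 0, 1 and 2. The sign was the same on all 4 days in 24 members, and the share of all genes that kept theirs was not counted. Saa1, an apolipoprotein of acute phase serum, had signals of 1516, 2612, 1046 and 2041 (control) and 42623, 49441, 56587 and 13192 (MET KO + EGFRi). All 4 MET KO + EGFRi arrays lay above all 4 control arrays, and the day 5 array was the lowest of the former. Its log2 differences over the days were 4.75, 4.21, 5.67 and 2.65, and a further Saa1 probe set gave 2.66 at day 5. Saa2, its close relative, had signals of 306, 391, 104 and 427 (control) and 28584, 30384, 44381 and 1406 (MET KO + EGFRi), so that its difference was 7.98 at day 2 and 1.57 at day 5. The Saa2 probe set and the further Saa1 probe set can also bind RNA of related genes, so these readings are not fully separate. Lcn2, the iron-siderophore binding lipocalin 2, had signals of 622, 743, 525 and 911 (control) and 34565, 36042, 7771 and 5470.1 (MET KO + EGFRi) and a difference of 2.50. In the MET KO + EGFRi arm the day 5 signal of these genes was the lowest of the 4 days, while it stayed above every control array. The share of all genes whose arms did not overlap was not counted, for these genes or for those so described below.

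Lrg1, a leucine-rich secreted glycoprotein, had 7019.6, 4238, 1196 and 3195 (control) and 27164, 27999, 19709 and 13145 (MET KO + EGFRi), with a difference of 2.02 at day 5. Serpina3n, a protease inhibitor, had 2279.5 and 6788 at day 5. Itih3, a carrier of hyaluronan in serum, had 12615, 14362, 7186 and 9079 (control) and 33058, 35845, 38823 and 26246 (MET KO + EGFRi), again with no overlap between the arms. Orm2, an orosomucoid, had 1540.5 and 6069.5 at day 5, and its difference of 1.93 was close to the 2.04 of day 2. Steap4, a metalloreductase induced by inflammation, differed by 3.54, 3.28, 0.25 and 1.93, and was smallest at day 2. Saa3, Orm1, Fgl1 and Cd14 were the other members past 2-fold, with day 5 differences of 1.42, 1.26, 1.40 and 1.06, the last of them the receptor part that hands lipopolysaccharide to TLR4. Hamp2, a gene related to hepcidin, was the member that was 2-fold lower, with 15567, 3745, 3345 and 5266 (control) and 4133, 3142, 2729 and 1489.6 (MET KO + EGFRi). Cebpd, which encodes a transcription factor of the acute phase response, had 324, 110.5, 146 and 139 (control) and 1280.1, 593, 461 and 396 (MET KO + EGFRi), and Stat3, which carries the IL-6 signal, had 2779.5 and 3842 at day 5, for differences of 1.16 and 0.46. Of the 20 genes kept in the list of IL-6, STAT3 and C/EBP signalling, 2 were 2-fold higher (against 2.25% of all genes) and none 2-fold lower. The median of that list was 0.13.

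The promoters of acute phase genes are known for binding C/EBP factors, and 3 of the genes higher on all 4 days are shown with matches to TTNNGCAA, a short form of the C/EBP motif, in capitals. Each line gives the 250 bases before the start site on the gene's own strand, from RefSeq (GRCm38.p6), at chr7:46742981-46743230 (- strand) for Saa1, chr2:32387740-32387989 (- strand) for Lcn2 and chr4:63362199-63362448 (+ strand) for Orm2.
Saa1: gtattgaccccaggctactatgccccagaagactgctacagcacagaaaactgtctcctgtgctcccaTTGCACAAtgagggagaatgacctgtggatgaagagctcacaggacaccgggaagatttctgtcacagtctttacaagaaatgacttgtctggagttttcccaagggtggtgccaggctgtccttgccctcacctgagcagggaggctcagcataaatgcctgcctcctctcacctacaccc
Lcn2: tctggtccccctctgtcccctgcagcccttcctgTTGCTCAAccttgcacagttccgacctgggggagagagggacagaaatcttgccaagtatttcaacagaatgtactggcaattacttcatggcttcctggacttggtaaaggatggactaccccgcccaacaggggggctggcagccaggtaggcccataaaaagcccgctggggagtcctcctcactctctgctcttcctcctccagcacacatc
Orm2: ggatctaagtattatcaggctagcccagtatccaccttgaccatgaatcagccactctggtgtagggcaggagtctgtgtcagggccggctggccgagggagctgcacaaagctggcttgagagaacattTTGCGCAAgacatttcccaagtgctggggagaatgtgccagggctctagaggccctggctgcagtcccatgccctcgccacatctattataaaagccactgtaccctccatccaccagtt
Both strands were searched, and in Orm2 the matches on the 2 strands cover the same bases. The motif was found in 9.56% of 32851 promoters of this length, and in 12 of the 22 acute phase genes kept that had a promoter in the table. A match is a description of these letters and not a shown site of binding.

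**Figure D2:**
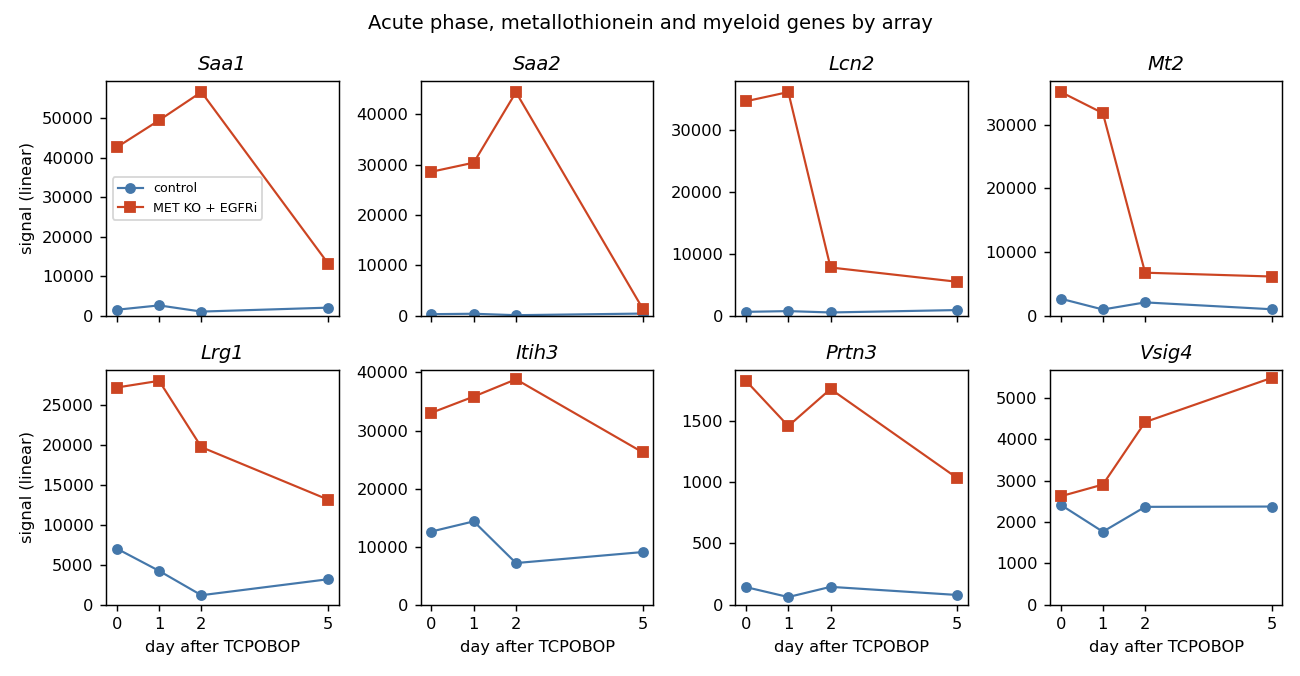
Signal (linear axis from 0) on each of the 8 arrays by day after TCPOBOP, control in blue circles and MET KO + EGFRi in red squares, 1 pooled array per point and no error bars. In Saa1, Saa2 and Lcn2 the MET KO + EGFRi line ends at day 5 at its lowest point, 13192, 1406 and 5470.1, still above the control points.

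Metallothioneins, small proteins that bind zinc, were also higher. Mt2 had signals of 2679.6, 978, 2094 and 1016 (control) and 35172, 31833, 6762 and 6160.2 (MET KO + EGFRi), with no overlap between the arms and a difference of 2.52 at day 5. Mt1 had 4632, 843, 2328 and 2004 (control) and 39104, 42558, 10537 and 8962 (MET KO + EGFRi) on its leading probe set, a difference of 2.12, but a weaker Mt1 probe set had 296, 38.4, 200.2 and 307 (control) and 2216, 576, 346 and 136 (MET KO + EGFRi), a difference of -0.87, so the direction for Mt1 at day 5 depends on the probe set. Fkbp5, a co-chaperone induced by glucocorticoids, had 2595, 1932, 2042 and 1529.9 (control) and 5821, 5739, 4421 and 3375 (MET KO + EGFRi) and a difference of 1.11. The other Fkbp5 probe set above the filter had 1456 (control) and 1516 (MET KO + EGFRi) at day 5, a difference of only 0.056. Of the 16 genes in the list of metallothioneins, zinc carriers and glucocorticoid targets, 11 were higher and 4 2-fold higher (against 48.6% and 2.25% of all genes). The median of the list was 0.32. Not all shared this direction. Sgk1, a kinase induced by glucocorticoids, was lower on all 4 days, with 2044 and 1105 at day 5.

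Markers of resident macrophages and of other myeloid cells were higher at day 5 as well. Among Kupffer cell and macrophage markers, 17 of 19 kept were higher and 4 at least 2-fold (against 48.6% and 2.25% of all genes), and their median log2 difference was 0.50, against 0.12, 0.69 and 0.88 before. Summed over the list, the control arrays gave 42485, 29925, 36108 and 54919. The MET KO + EGFRi arrays gave 48285, 47319, 72287 and 80049, and the day 5 sum was the highest of each arm. Marco, a scavenger receptor, had signals of 684, 410.2, 424 and 268 (control) and 951, 824, 816 and 978 (MET KO + EGFRi). The other Marco probe set above the filter had 709 (control) and 1143 (MET KO + EGFRi) at day 5, a difference of 0.64. Vsig4, a complement receptor of Kupffer cells, had 2418, 1766, 2367 and 2375 (control) and 2622, 2906, 4417 and 5487 (MET KO + EGFRi), and Cd163, the haemoglobin scavenger receptor, had 560.2, 282, 309.7 and 412 (control) and 437, 496, 711 and 989 (MET KO + EGFRi). In Marco, Vsig4 and Cd163 the MET KO + EGFRi array of day 5 was the highest of all 8. The markers did not move as one, since Clec4f and Adgre1, which also define Kupffer cells and were chosen here after their values were seen, had 4056 and 3655, and 2622 and 2634, at day 5. These 2 markers had differed by 1.46 and 1.05 at day 2, and their day 5 differences were -0.15 and 0.0068. Lyz2, the lysozyme of myeloid cells, was the other member past 2-fold, with 2534, 1281, 1994 and 2495 (control) and 2450, 2692, 3699.6 and 5951 (MET KO + EGFRi).

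Of the monocyte and neutrophil markers, 14 of 16 kept, from 25 listed, were higher and 4 at least 2-fold (against the same 48.6% and 2.25% of all genes), with a median of 0.43. Prtn3, the neutrophil protease proteinase 3, had 144, 63.1, 146 and 80 (control) and 1826, 1457, 1759.7 and 1033 (MET KO + EGFRi). S100a8 and S100a9, the paired calcium-binding proteins of neutrophils, had 679.9 and 2140, and 392 and 1418, at day 5. In Prtn3 every MET KO + EGFRi array was above every control array, from day 0 on. Mpo, the peroxidase of neutrophil granules, had 435 and 709.6 at day 5. Fcgr3, an Fc receptor of myeloid cells, was the other member past 2-fold, with a difference of 1.26. The control arrays of days 0 to 2 summed to between 10013 and 12079.6 over the list and that of day 5 to 12027. For MET KO + EGFRi the earlier sums lay between 19254 and 25309.8, and the day 5 sum was 19387. These markers moved in the same direction as the acute phase genes, and their part in that difference was not tested.

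Interferon-stimulated genes, an antiviral programme, went the other way. Of 23 kept of 31 listed, 20 were lower on the MET KO + EGFRi array of day 5, 5 of them at least 2-fold (against 2.16% of all genes), and none was 2-fold higher. The median log2 difference was -0.50, whereas it had been 1.02 at day 0, 0.18 at day 1 and -0.035 at day 2. In all, 19 members were higher at day 0 and lower at day 5, and the share of all genes that did so was not counted. From day 0 to day 5 the list's median change was 0.32 in control and -0.96 in MET KO + EGFRi. By the median, the arms moved in opposite directions. Rsad2, which encodes the antiviral enzyme viperin, had signals of 594, 619.9, 853 and 4423 (control) and 1529, 867, 845 and 962 (MET KO + EGFRi). The control array of day 5 stood above the other 7 arrays, and the 2 further Rsad2 probe sets above the filter gave differences of -1.63 and -1.45 at day 5. Igtp, an interferon-inducible GTPase, had 2694, 1607, 2046 and 3585 (control) and 5519, 2468, 1996 and 1353 (MET KO + EGFRi) and a difference of -1.36. Zbp1, a sensor of nucleic acids, had 86, 397, 344 and 498 (control) and 517, 146, 351 and 112 (MET KO + EGFRi), and its values moved from day to day in both arms. Ifi27l2a had 511, 195, 334 and 731 (control) and 1118, 292, 245 and 273 (MET KO + EGFRi), and Oasl2, of the oligoadenylate synthetase family, had 247, 139, 245 and 419 (control) and 737, 329, 231 and 142 (MET KO + EGFRi). Ifit1, which binds viral RNA ends, had 937 and 502 at day 5, a difference of -0.82.

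Promoters of this group typically carry the interferon-stimulated response element, and 3 members are shown with matches to its core GAAANNGAAA in capitals, read as above from RefSeq (GRCm38.p6). They lie at chr12:26456453-26456702 (- strand) for Rsad2, chr11:58199306-58199555 (+ strand) for Igtp and chr19:34640639-34640888 (+ strand) for Ifit1.
Rsad2: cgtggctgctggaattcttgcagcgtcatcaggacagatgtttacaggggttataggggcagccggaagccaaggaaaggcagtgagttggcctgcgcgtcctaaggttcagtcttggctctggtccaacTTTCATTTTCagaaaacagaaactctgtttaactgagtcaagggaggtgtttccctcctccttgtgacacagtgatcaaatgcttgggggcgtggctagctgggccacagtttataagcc
Igtp: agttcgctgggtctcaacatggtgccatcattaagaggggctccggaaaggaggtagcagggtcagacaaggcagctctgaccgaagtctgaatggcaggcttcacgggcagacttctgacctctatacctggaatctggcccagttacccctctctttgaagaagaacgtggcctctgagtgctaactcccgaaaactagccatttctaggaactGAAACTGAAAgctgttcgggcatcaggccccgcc
Ifit1: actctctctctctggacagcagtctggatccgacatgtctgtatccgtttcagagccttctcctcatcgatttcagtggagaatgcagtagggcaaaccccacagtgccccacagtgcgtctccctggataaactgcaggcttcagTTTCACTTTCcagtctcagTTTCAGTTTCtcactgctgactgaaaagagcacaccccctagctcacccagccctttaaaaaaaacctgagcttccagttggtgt
The motif, searched on both strands, was found in 2.98% of 32851 promoters of this length and in 10 of the 19 interferon-stimulated genes kept that had a promoter in the table. Ifit1 holds 2 matches, both on the opposite strand. Rsad2 and Igtp were at least 2-fold lower at day 5 and Ifit1 was not, with the same core in all of them.

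**Figure D3:**
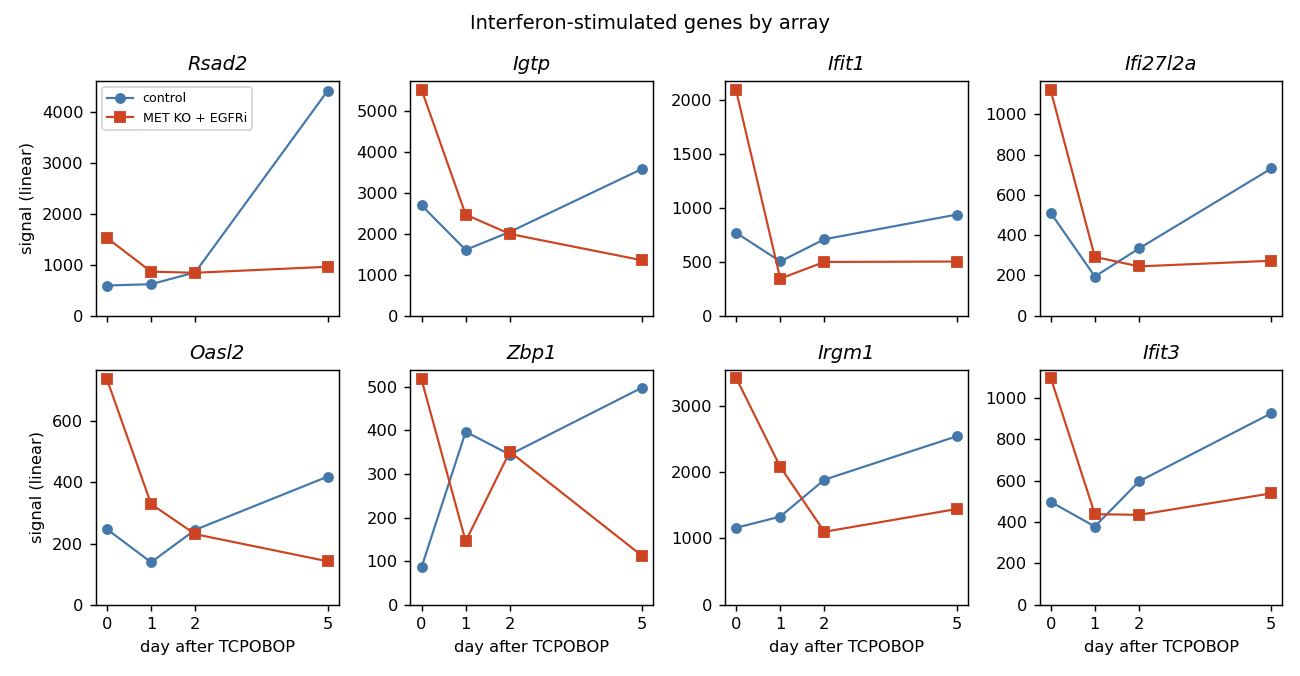
Signal (linear axis from 0) of 8 interferon-stimulated genes on each of the 8 arrays by day after TCPOBOP, control in blue circles and MET KO + EGFRi in red squares, 1 pooled array per point. The red point is the higher one at day 0 and the blue point the higher one at day 5 in each panel, as for Rsad2, with 594 and 1529 at day 0 and 4423 and 962 at day 5.

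Genes of DNA replication, which had been lower in MET KO + EGFRi livers at days 1 and 2, were no longer lower at day 5. Of 21 kept of 33 listed, 17 were higher, 2 of them at least 2-fold (against 48.6% and 2.25% of all genes). The median log2 difference was 0.24, against 0.001, -0.43 and -0.42 before. Between days 2 and 5 the list's median change was -0.67 in control and 0.10 in MET KO + EGFRi. By the median, control came down from its day 2 level and the other arm moved little. Rrm2, the small subunit of ribonucleotide reductase that supplies deoxynucleotides, had signals of 551, 3684, 3857 and 905 (control) and 603, 1967, 899.5 and 2613 (MET KO + EGFRi). Control was highest at days 1 and 2, and at day 5 the order of the arms was turned, with a difference of 1.46. Pcna, the sliding clamp of DNA polymerases, had 1509, 3359.5, 2774 and 1157 (control) and 1272, 2461, 1829 and 1962 (MET KO + EGFRi) and differences of -0.23, -0.44, -0.58 and 0.73. Mcm4, a subunit of the replicative helicase, had 234, 955, 524 and 261 (control) and 487, 899.5, 374 and 488 (MET KO + EGFRi) and a difference of 0.75. Tipin, a replication fork protein, had 366, 511, 512 and 84.4 (control) and 365, 330, 291 and 313 (MET KO + EGFRi), and here the control array of day 5 was the lowest of the 8. Prim1, the catalytic primase subunit, had 609 and 914 at day 5, and Rrm1, the large reductase subunit, had 557 and 824. The other Rrm1 probe set above the filter had 435 (control) and 447 (MET KO + EGFRi) at day 5, a difference of 0.032.

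The median difference of mitotic genes was farthest from 0 at day 2. At day 5 members lay on both sides of 0, from -1.06 to 0.96 on leading probe sets. Of 32 kept, 16 were higher (against 48.6% of all genes) and 16 lower, 1 of them at least 2-fold (against 2.16%). The median log2 difference was 0.012 after -0.70 at day 2. Ccna2, counted as higher with a difference of 0.48, differed by -2.14 on its other probe set above the filter. That probe set had 957 (control) and 162.5 (MET KO + EGFRi) at day 5. The median change from day 2 to day 5 was -0.52 for control livers and 0.16 for MET KO + EGFRi livers. Of the 32 members, 23 were closer to 0 at day 5 than at day 2. How many of all genes came closer to 0 was not counted, so this number has no background to be read against. Cdk1, the kinase that drives entry into mitosis, had signals of 95, 784, 1421 and 317 (control) and 88.5, 348, 383 and 449.9 (MET KO + EGFRi). In control it reached its highest value at day 2, and in MET KO + EGFRi at day 5, although that value was below the control values of days 1 and 2. Ccnb2, a cyclin partner of Cdk1, had 40.7, 424, 2030.4 and 269 (control) and 35.1, 174, 163 and 422 (MET KO + EGFRi) and differences of -0.074, -1.02, -3.17 and 0.53. Mad2l1, of the spindle checkpoint, had 158, 530.5, 1963 and 188 (control) and 202, 376, 56.4 and 432 (MET KO + EGFRi), with a difference of -4.00 at day 2 and 0.96 at day 5. Cdc20, the activator of the anaphase-promoting complex, stayed lower, with 283, 1469.9, 2840.5 and 816 (control) and 261, 349, 416 and 613 (MET KO + EGFRi) and a day 5 difference of -0.37. Mki67, the proliferation marker, had 192, 447, 636 and 297 (control) and 114, 263, 289 and 312 (MET KO + EGFRi). Racgap1, a protein of cytokinesis, had 321, 443, 922 and 536 (control) and 417, 702, 445 and 219.5 (MET KO + EGFRi). On leading probe sets Racgap1 was the member 2-fold lower at day 5.

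Among G1/S regulators, Ccnd1, the cyclin D1 that answers to growth factor signals, had 4553, 6318, 6381 and 5647 (control) and 1232, 3172, 3571 and 4264 (MET KO + EGFRi), and its differences over the days were -1.83, -0.98, -0.83 and -0.40. MET KO + EGFRi arrays stayed below every control array, and their value was highest at day 5. Of the 2 further Ccnd1 probe sets above the filter, 1 was also lower at day 5. Myc, a transcription factor of growth, had 36.4, 303, 459.9 and 149.8 (control) and 159, 254, 395 and 425 (MET KO + EGFRi) and a difference of 1.17. Foxm1, a transcription factor of mitotic genes, had 1409 and 1328, and the CDK inhibitor Cdkn1a had 712 and 786, at day 5, a difference that turned to -0.55 with the mean of its probe sets. Of the 14 G1/S genes kept, 1, Myc, was 2-fold higher and 0 2-fold lower (against 2.25% and 2.16% of all genes). Of 17 CDK inhibitors and p53 targets kept, 1 was 2-fold higher and 1 2-fold lower (against the same shares of all genes). The higher one was Cdkn1c, with 62.3 and 273 at day 5. The lower one was Gadd45b, a stress gene that CAR activators induce, with 262, 1006, 2255 and 2126 (control) and 317, 1463, 1091 and 699.7 (MET KO + EGFRi). Gadd45b was at 262 and 317 at day 0, and at day 5 control had kept its day 2 level while MET KO + EGFRi had not. Nop2, Heatr1 and Ncl, which serve ribosome assembly, differed by 1.50, 0.97 and 0.92 at day 5. In their list of ribosome biogenesis and polyamine genes, 17 of 23 were higher (against 48.6% of all genes), with a median of 0.21. The other Heatr1 probe set above the filter differed by only 0.07. The 2 other Ncl probe sets above the filter split, at 1.03 and -0.73.

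**Figure D4:**
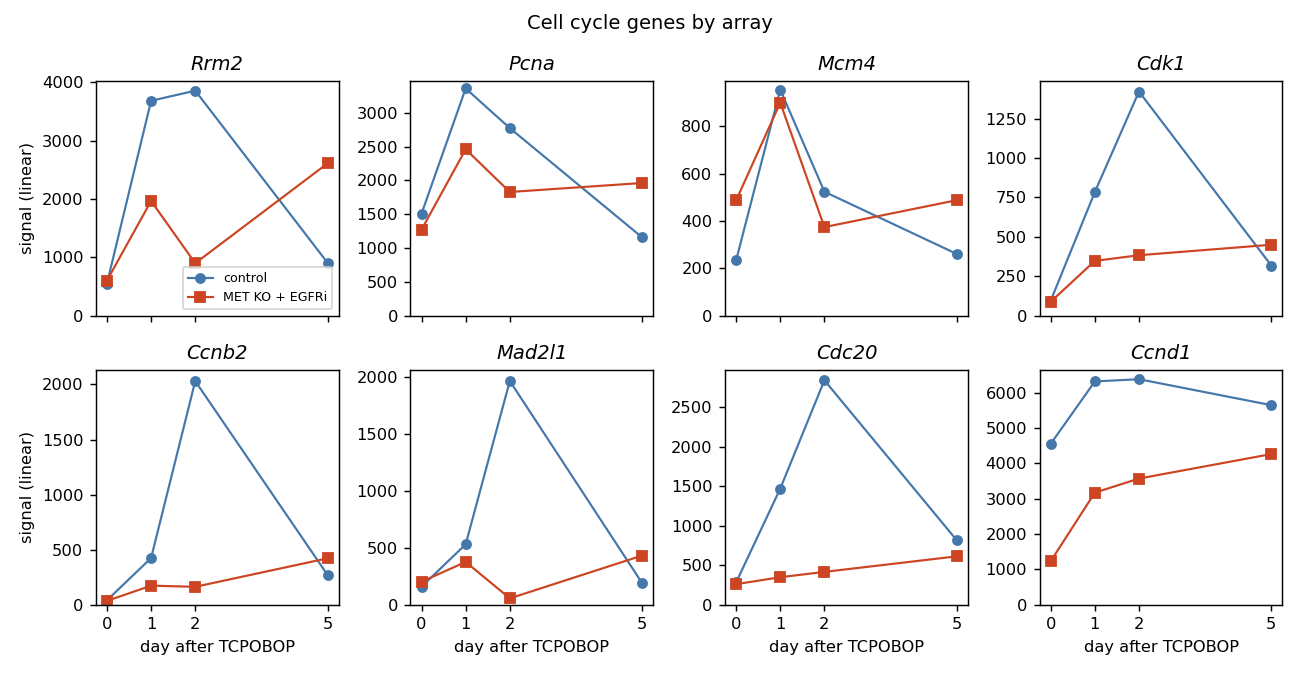
Signal (linear axis from 0) of 8 cell cycle genes on each of the 8 arrays by day after TCPOBOP, control in blue circles and MET KO + EGFRi in red squares, 1 pooled array per point. In Rrm2 and Cdk1 the control point of day 5 lies below those of days 1 and 2. At day 5 Rrm2 reads 905 in control and 2613 in MET KO + EGFRi, and Cdk1 317 and 449.9. Control Ccnd1 stays high at day 5, at 5647.

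The phase I enzymes that CAR induces showed no 2-fold difference between the arms at day 5. Of 18 phase I enzymes kept, the differences ran from -0.98 to 0.70, and the median was 0.026, which turned negative under some choices of probe set, after -0.42 at day 0. From day 0 to day 5 the list's median change was 1.36 in control and 1.66 in MET KO + EGFRi, so both arms stood above their day 0 level. Cyp2b10, the cytochrome most used to read CAR activity, had signals of 444, 38898, 33939 and 45578 (control) and 356, 37324, 32027 and 48292 (MET KO + EGFRi), and its probe set can bind related RNAs. Cyp2c55, another induced cytochrome, had 788, 36847, 23337 and 33252 (control) and 462, 16179.7, 19763 and 21094 (MET KO + EGFRi) and Cyp2c54 had 38166 and 19318 at day 5. Alas1, the first enzyme of heme synthesis, had 13451, 28239.6, 19269 and 11259.8 (control) and 11518, 22130.4, 29740.3 and 18361 (MET KO + EGFRi). The MET KO + EGFRi array of Alas1 was above control at days 2 and 5 and below it at days 0 and 1. Nr1i3, the gene of CAR itself, had 3141, 2065, 1784 and 1887 (control) and 1408, 863, 790 and 1708 (MET KO + EGFRi). It was over 2-fold lower in MET KO + EGFRi on days 0, 1 and 2, with differences of -1.12, -1.19 and -1.11, and differed by -0.14 at day 5.

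Among phase II enzymes and transporters, 10 of 23 kept were higher and 13 lower, with a median of -0.16, and 1 was 2-fold higher. Of all genes, 48.6% were higher and 2.25% at least 2-fold higher. Sult1e1, the oestrogen sulfotransferase, was the member past 2-fold, with 23.8, 337, 344 and 476 (control) and 29.7, 1932, 26.5 and 3524 (MET KO + EGFRi). It was higher in MET KO + EGFRi at days 1 and 5 and lower at day 2, when its signal was 26.5, so its direction changed between days. Gsta4 and Gsta2, glutathione S-transferases of the alpha class, had 2008, 4536, 7790.1 and 4629 (control) and 241, 1028, 2077 and 2879 (MET KO + EGFRi), and 2349, 1451, 5049.5 and 3767 (control) and 158, 782, 875 and 2338 (MET KO + EGFRi). Both remained lower at day 5, with differences of -0.67 and -0.67, where they had been -1.87 and -2.44 at day 2.

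Among the receptors removed and inhibited, their ligands and their downstream genes, few leading probe sets differed by 2-fold at day 5. Egfr had signals of 3018, 3539, 3497 and 2766 (control) and 4694, 4714, 3846 and 3336 (MET KO + EGFRi) on its leading probe set, a difference of 0.26. Its other probe sets above the filter were not of like size: 1 was past 2-fold, with 2430, 2952, 1622 and 684 (control) and 7694, 6844, 2536 and 1916 (MET KO + EGFRi) and a difference of 1.39, and the other 4 differed by 0.72, 0.37, 0.19 and -0.23. Hgf, the ligand of MET, had 508, 224, 294 and 286 (control) and 318, 481, 475 and 333 (MET KO + EGFRi). On leading probe sets, the member past 2-fold of 16 receptor, ligand and adaptor genes was Errfi1, a feedback inhibitor of EGFR, with 22992, 19679, 12621 and 8104 (control) and 34379.9, 24926, 28124 and 24705 (MET KO + EGFRi). The Errfi1 signal was lower on each later control array, and all MET KO + EGFRi arrays were above all control arrays. Of 16 genes that respond to ERK, the kinase downstream of both receptors, 11 were lower (against 6216 of 12112 genes in all), none of these 2-fold. Myc, 1 of the 16, was 2-fold higher. Both lists of this paragraph thus held 1 gene of 16 at least 2-fold higher, against 2.25% of all genes. Dusp6, an ERK phosphatase that is a usual readout of ERK activity, had 769, 1413, 872 and 704 (control) and 267, 467, 731 and 1082 (MET KO + EGFRi). Its difference was -1.31 at day 0, -1.46 at day 1 and -0.23 at day 2, and 0.57 at day 5, when MET KO + EGFRi was the higher arm. Spry4, another feedback inhibitor, had 494 and 315 at day 5.

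Cholesterol synthesis genes were still mostly lower in MET KO + EGFRi livers, by less than at day 2. Of 19 kept, 16 were lower (against 6216 of 12112 genes in all), none by 2-fold on its leading probe set. Other Sc5d probe sets above the filter differed by -1.85 and -0.55 at day 5, the former with 5120 (control) and 1370 (MET KO + EGFRi). The median log2 difference was -0.35 against -1.28 at day 2. From day 2 to day 5 the median change was 0.057 in control and 0.70 in MET KO + EGFRi. Hmgcs1, which makes HMG-CoA, had signals of 8797, 24242, 14679.7 and 21571 (control) and 8452, 11002, 4320.1 and 11353 (MET KO + EGFRi) and a day 5 difference of -0.92. The other Hmgcs1 probe sets above the filter differed by -0.12, -0.42 and -0.84 at day 5. Insig1, the sterol sensor that restrains the pathway, had 3607, 6130.4, 5285 and 5349.6 (control) and 1448, 2637, 2118 and 2785 (MET KO + EGFRi) with no overlap between the arms. Msmo1, a sterol oxidase, had 4203, 12234, 7993 and 8968 (control) and 3094, 6888, 1360.3 and 5983 (MET KO + EGFRi), so that its difference went from -2.49 at day 2 to -0.58 at day 5.

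Of 33 fatty acid synthesis and storage genes kept, 26 were lower (against 6216 of 12112 genes in all), 6 at least 2-fold lower (against 2.16%) and 2 2-fold higher, and a median of -0.43. The median was -0.63, -0.64 and -0.33 on the earlier days. The sign was the same on all 4 days in 22 members, and the share of all genes that kept theirs was not counted. G0s2, an inhibitor of the lipase ATGL, had 2034, 619.5, 1275 and 1170 (control) and 159.5, 125, 229.8 and 136 (MET KO + EGFRi) and a difference of -2.59. Elovl6, which elongates saturated fatty acids, had 9663, 8728, 6028 and 5306 (control) and 1698, 1821, 2401 and 2330.2 (MET KO + EGFRi), and Plin2, a coat protein of lipid droplets, had 12726, 11368, 11909 and 11049 (control) and 8759, 5802, 8295 and 4773 (MET KO + EGFRi). In G0s2, Elovl6 and Plin2 every MET KO + EGFRi array was below every control array. Pnpla3, a lipid droplet protein, differed by -1.13, and Fads2 and Elovl5, of polyunsaturated fatty acid synthesis, by -1.07 and -1.12. Fasn, fatty acid synthase, had 12335, 10093, 6221 and 6826 (control) and 2629, 4717, 3397 and 5164 (MET KO + EGFRi), and its difference went from -2.20 at day 0 to -0.40 at day 5. Lpin1, a phosphatidate phosphatase, was one of the members 2-fold higher, with 4916, 1630.4, 1477 and 1097 (control) and 6660, 4536, 3877 and 3831 (MET KO + EGFRi), and Plin4, a droplet coat protein, was the other, with 102 and 399 at day 5. Among 32 genes of fatty acid oxidation, Acaa2, the mitochondrial thiolase, was 2-fold lower on its leading probe set, with 17474, 10846, 12194 and 13476 (control) and 12541, 8543, 10156 and 5046 (MET KO + EGFRi). On the probe set read when s_at and x_at types were left out, Acaa2 differed by 0.26, in the other direction. Ehhadh, a peroxisomal enzyme, was 2-fold higher, with 6366, 4238, 6016 and 3316 (control) and 10706, 11964, 17221 and 7323 (MET KO + EGFRi). Acot2, a mitochondrial thioesterase, was the other member 2-fold higher, by 1.05. Of all genes, 2.25% were at least 2-fold higher.

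**Figure D5:**
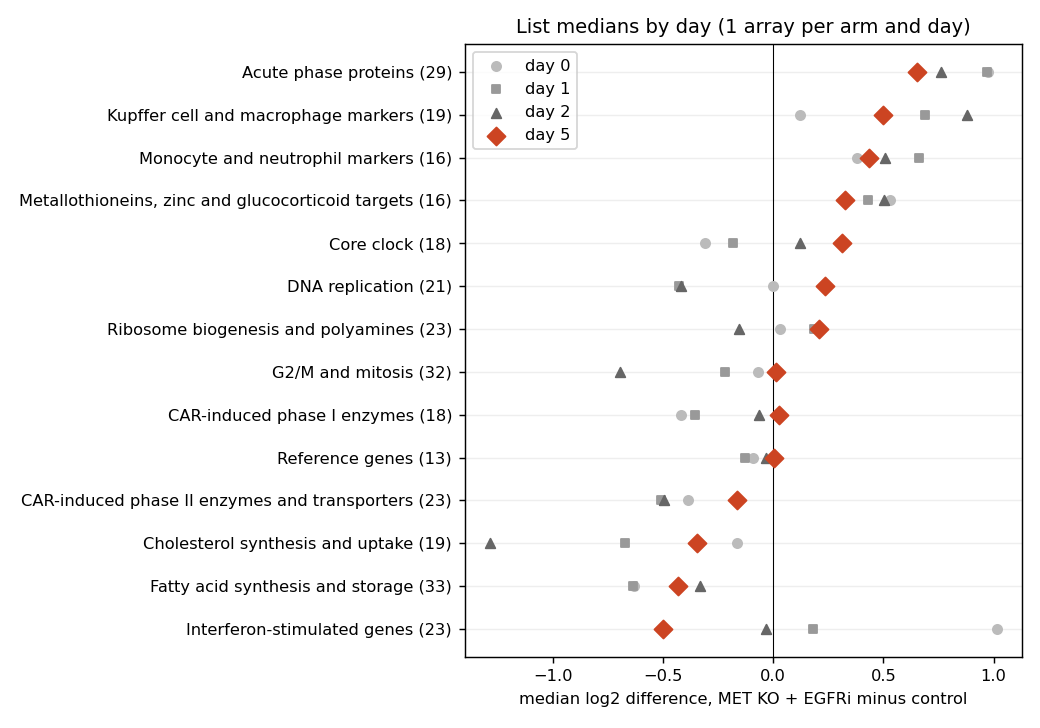
Median log2 difference between the arms (MET KO + EGFRi minus control) of 14 gene lists on each day, with the number of genes kept in brackets, days 0, 1 and 2 in greys and day 5 as red diamonds, 1 array per arm and day. At day 5 acute phase proteins stand at 0.65 and interferon-stimulated genes at -0.50, while G2/M genes stand at 0.012.

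Several genes of the growth hormone axis and of sex-biased expression were among the largest differences, in both directions. Of 26 kept, 3 were 2-fold higher and 4 2-fold lower (against 2.25% and 2.16% of all genes), with a median of 0.088. Socs2, a feedback inhibitor of growth hormone signalling, had 825, 713, 445 and 319 (control) and 2277, 2637, 2755 and 1375 (MET KO + EGFRi), and Cish, another such inhibitor, had 1222, 1834, 1321 and 1311 (control) and 2954, 2472, 3005 and 2605 (MET KO + EGFRi), with no overlap between the arms in either. The 2 other Socs2 probe sets above the filter differed by 1.74 and -0.19. Hao2, a peroxisomal hydroxy acid oxidase, had 1295, 885, 3486 and 7137 (control) and 268, 441, 1026 and 1182 (MET KO + EGFRi) and a difference of -2.52. Mup3, a major urinary protein, had 20468, 30231, 14326 and 5845 (control) and 13264, 3077, 4373 and 1318 (MET KO + EGFRi), a difference of -2.09. The major urinary protein genes are near copies of each other, so the probe sets cannot be given to 1 gene with certainty. Slco1a1, a transporter of organic anions, differed by 1.06. Cyp3a44, a cytochrome of the Cyp3a family, had 217, 5544, 1155 and 205 (control) and 210.3, 1409, 1552 and 960.3 (MET KO + EGFRi), and it was lower at day 1 and higher at day 5 in MET KO + EGFRi.

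Several clock genes were higher in MET KO + EGFRi at day 5, with a low value on the control array of that day. Of 18 core clock and output genes kept, 11 were higher in MET KO + EGFRi, 3 of them 2-fold, and 1 was 2-fold lower. Of all genes, 48.6% were higher, 2.25% 2-fold higher and 2.16% 2-fold lower. The median of the clock list was 0.31. Usp2, a clock-controlled deubiquitinase, had 2955, 1304, 1938 and 501 (control) and 1242, 1922, 2708 and 1685 (MET KO + EGFRi). Dbp, a clock output transcription factor, had 5908, 4935, 5226 and 1639.7 (control) and 1278, 1799, 5211 and 3025 (MET KO + EGFRi), and Per1, a core clock repressor, had 967, 429, 658 and 342 (control) and 943, 929.8, 1028 and 919 (MET KO + EGFRi). The control array of day 5 was the lowest of the control arrays in all 3 of these genes. Ciart, a clock repressor, was the remaining member 2-fold higher, by 1.18. Nfil3, which represses the targets of Dbp, had 225, 141, 208 and 414 (control) and 916, 947, 483 and 181 (MET KO + EGFRi), highest of the control arrays at day 5. Bhlhe41, another clock repressor, was the member 2-fold lower, with 439 and 175. The time of day at which livers were taken is not given in the labels, and its part in the differences at day 5 was not tested.

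Periportal genes went both ways at day 5, 7 higher and 12 lower (against 6216 of 12112 genes lower in all), with Asl at 0.77 and Cdh1 at -0.87. Cyp2f2, a cytochrome of periportal hepatocytes, was the gene with the lowest log2 difference of all at day 5. Cyp2f2 had signals of 23226, 25618, 20696 and 30518 (control) and 5912, 3117, 3227 and 3943 (MET KO + EGFRi), with every MET KO + EGFRi array far below control and a day 5 difference of -2.93. Of 19 urea cycle and periportal genes kept it alone passed 2-fold (2.16% of all genes were 2-fold lower), and the list's median was -0.15. Asl, an enzyme of the urea cycle, was higher on all 4 days, with 6882 and 11751 at day 5. Among Wnt-dependent pericentral genes, the glutamate transporter Slc1a2 had 1819, 655, 577 and 571 (control) and 1669.8, 731, 1299.6 and 1457 (MET KO + EGFRi). The other Slc1a2 probe set above the filter had 356 (control) and 427 (MET KO + EGFRi) at day 5, a difference of 0.22. The median of the pericentral list was 0.11. C9, a component of the complement membrane attack complex, was lower, with 12921, 11141, 5204 and 4979 (control) and 8078, 5506, 6375 and 1795 (MET KO + EGFRi), in a list of 34 secreted hepatocyte proteins whose median was 0.067. Nr0b2, which encodes the repressor SHP, differed by -1.05 and Ddc, the decarboxylase of aromatic amino acids, by -1.93, although another Ddc probe set was higher. Cyp7a1, the rate-limiting enzyme of bile acid synthesis, had 5047, 3967, 3508 and 2607 (control) and 1895, 2023, 3900.3 and 4087 (MET KO + EGFRi), lower in MET KO + EGFRi at days 0 and 1 and higher at day 5. Hspb1, a small heat shock protein, differed by -1.40. The proteasome subunits, which degrade tagged proteins, were lower in 21 of 28, none by 2-fold, with a median of -0.13, and the targets of NRF2, the regulator of antioxidant enzymes, in 13 of 19, with a median of -0.24, where 6216 of all 12112 genes were lower. Rdh9, a retinol dehydrogenase, differed by 1.87 in a retinoid list whose other members stayed within 2-fold. The reference genes had a median of 0.0028, with differences from -0.49 to 0.53, so differences of this size were met in genes commonly used for normalization.

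Of 9 cholangiocyte and progenitor markers kept, 7 were lower at day 5, 1 at least 2-fold, with a median of -0.27. Of all 12112 genes, 6216 were lower and 2.16% at least 2-fold lower. The lymphocyte and dendritic cell markers went both ways, 5 higher and 7 lower of 12 kept. Among lymphocyte and dendritic cell markers, Ighm, the heavy chain of IgM, had 1164, 1326, 907 and 553 (control) and 1166, 1092, 1726 and 3164 (MET KO + EGFRi), while Cd79a, a B cell receptor subunit, had 375 and 93 at day 5 and H2-Ab1, of MHC class II, had 1009, 702, 1009 and 1833 (control) and 913, 468, 144 and 722 (MET KO + EGFRi). Ccl5, a chemokine of T cells, differed by 1.27. The 4 other Ighm probe sets above the filter split, with 1.89 and 0.29 in the same direction and -0.026 and -0.15 in the other. The sinusoidal endothelial markers had a median of -0.089 and none past 2-fold. Of 26 stellate cell and matrix genes, 18 were higher and 1 at least 2-fold (against 48.6% and 2.25% of all genes). The latter was Dcn, the proteoglycan decorin, with 4152, 3946, 4369.9 and 3904 (control) and 6305, 8464, 9520.1 and 8994 (MET KO + EGFRi). Prom1, a surface protein of progenitor and biliary cells, was lower on all 4 days, with 590.3, 2588, 2528 and 5019.6 (control) and 128, 1049, 492 and 1499 (MET KO + EGFRi). In each arm the day 5 array was the highest of the 4.

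Some of the highest differences at day 5 were seen on every day and others at day 5 alone. Mmd2, a membrane protein of the progestin and adipoQ receptor family, had signals of 79.1, 98.6, 118 and 96.5 (control) and 4031, 3866, 4089 and 2594 (MET KO + EGFRi) and differences of 4.77, 4.54, 4.46 and 3.99, and a further probe set gave 4.61 at day 5. Inf2, an actin-binding formin, had 1109.7, 1422, 1224 and 1409 (control) and 5861, 9661, 10219 and 12458 (MET KO + EGFRi), and its other probe set differed by 2.22. Nlrp12, of the NOD-like receptor family, had 83.2, 273, 285 and 346 (control) and 1464, 1410.5, 1436 and 1588 (MET KO + EGFRi), and Gpcpd1, a glycerophosphocholine phosphodiesterase, had 1798, 2464, 2921 and 2596 (control) and 7929.5, 10819, 10038 and 9771 (MET KO + EGFRi). None of these 4 genes had overlapping arms on any day, and they were picked for their large day 5 differences. How many of all genes had arms without overlap was not counted. Opn3 and Gprasp1, by contrast, were past 2-fold at day 5 alone. Opn3, an opsin, had 671, 872, 793 and 158 (control) and 814, 992, 705 and 1102 (MET KO + EGFRi), where the control array of day 5 was the one that stood apart. Gprasp1, which sorts G protein-coupled receptors, had 693, 814, 984 and 123 (control) and 1147, 1225, 1088 and 1328 (MET KO + EGFRi), and its other probe set went the other way, by -0.49. St3gal6, a sialyltransferase, had 319, 2138, 861 and 593 (control) and 453, 1918, 1830 and 5614 (MET KO + EGFRi), highest on the MET KO + EGFRi array of day 5, while its 2 other probe sets above the filter differed by 0.40 and 0.45. Nup62, a nuclear pore protein, was higher by 1.88 on its leading probe set, and its 4 others above the filter ran from -0.93 to 0.56.

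Among the lowest differences, Nat8f1, an acetyltransferase, had 6187, 5987, 3321 and 7160.4 (control) and 1577, 1719, 2480.2 and 1473 (MET KO + EGFRi), lower on all 4 days. Mgll, the lipase of monoacylglycerols, had 3283, 2839, 2549 and 4324 (control) and 2187, 1728, 2101 and 992 (MET KO + EGFRi), and its 2 other probe sets above the filter differed by -1.23 and -0.63, in the same direction. Ndrg1, a stress-responsive gene, had 669, 1170.2, 1019 and 3339.5 (control) and 769.5, 892, 666 and 979 (MET KO + EGFRi), with the control array of day 5 the highest of the 8, and its 2 other probe sets above the filter differed by -1.77 and -1.57. Tubb2a, a beta tubulin, had 710, 4554, 1262 and 4331 (control) and 723, 732, 592 and 1080.5 (MET KO + EGFRi), which was high in control at days 1 and 5. Hsd17b6, a steroid dehydrogenase, had 9038, 2228, 2295 and 7589 (control) and 1955, 846, 4358 and 1649 (MET KO + EGFRi), lower on every day but day 2. Phgdh, the first enzyme of serine synthesis, had 2641, 3751, 944 and 5218 (control) and 369, 462, 2400.1 and 977 (MET KO + EGFRi), but its other probe set above the filter was higher, by 1.30. Mrpl55, a mitochondrial ribosomal protein, had 656, 769.5, 775 and 755 (control) and 728, 580.5, 806 and 72.8 (MET KO + EGFRi), where the MET KO + EGFRi array of day 5 stood apart from the other 7.

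Whether the arm difference at day 5 departed from that of the earlier days was tested across all genes with limma, as an interaction of arm with day 5, which takes the spread of the arm difference over days 0, 1 and 2 as its error. No gene passed a Benjamini-Hochberg adjusted p of 0.05 (0 of 12112, 0%), and 720 (5.94%) had an unadjusted p under 0.05, 361 upwards and 359 downwards. With 2 residual degrees of freedom and pools of different days in place of replicates, the test could find only large departures. The smallest p values were those of Mrpl52, a mitochondrial ribosomal protein, with a departure of 3.23 ± 0.41 (SE) on the log2 scale (limma adjusted p = 0.626), and of Gprasp1 and Saa2. For Saa2 the departure was -5.19 ± 0.73 (limma adjusted p = 0.626), from a difference of 6.25, 6.04 and 7.98 on the earlier days to 1.57. Mrpl52 had signals of 1185, 2147, 2576 and 279.8 (control) and 359, 526, 406 and 768 (MET KO + EGFRi), and its 2 other probe sets above the filter differed by -0.52 and -0.0059 at day 5. Rsad2 had a departure of -2.69 ± 0.50 (limma adjusted p = 0.723) and Rrm2 one of 2.39 ± 0.73 (limma adjusted p = 0.765). The turns in sign described above for replication and interferon-stimulated genes were therefore not established gene by gene.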

How the data were processed

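Per the labels' protocols, biotin-labelled cRNA was made from 6 µg of total RNA of pooled livers. The deposited values are signal intensity from MAS5, per the submitters' processing notes, on a linear scale, and each array's mean after trimming 2 percent at each end is 500.0. The version of MAS5, masking and detection calls are not given in the sources used here. Probe sets were named through the platform's gene table: of 45037, after 64 controls were left out, 34945 had 1 gene, 932 several and 9160 were not listed. Each gene took the values of 1 probe set, the one of highest mean log2(signal + 71), where 71 is the lower quartile of all values, and was kept where that mean was at least 8.24, the median of probe sets. This left 12112 of 18193 genes. A difference of at least 1 (2-fold) was counted, with no test. The interaction was fitted with limma (3.58.1, R 4.3.3) on all 8 arrays with day and arm as terms and a variance trend, adjusted by Benjamini-Hochberg, and the fit was tested on simulated data.

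The 42 gene lists and the members named were chosen with earlier results of these data known. Genes were named by a rule: the 30 largest differences upwards and 30 downwards at day 5 among genes whose higher signal reached its array's upper quartile, up to 8 members of each list with the largest difference, 18 genes always read, the 5 of smallest interaction p in each direction, and the 15 in each direction whose arm difference changed most from day 2 to day 5. Alb, Saa3, Orm1, Itih3, Fgl1, Cd14, Clec4f and Adgre1 were named outside it, after their values were seen. Promoter sequences are RefSeq's (GRCm38.p6). The alternatives tried were other pseudocounts, filters, normalization and choices of probe set for counts, medians and genes, and, for the interaction, leaving out each array of days 0, 1 and 2 in turn. An interaction without a day 5 array cannot be estimated. A further alternative, chosen after seeing the data, left out genes whose other probe sets above the filter went the other way.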

Additional observations from a re-analysis of the deposited data

Results flagged for a closer look

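Each of the following had an arm difference at day 5 opposite in direction to that of another day, with 1 pooled array per arm and day, and no gene passed the limma interaction, so the change of direction was not established for any of them. The median over the interferon-stimulated genes was -0.50 (log2) at day 5 against 1.02 at day 0. DNA replication genes had 0.24 at day 5 against -0.43 at day 1 and -0.42 at day 2. Core clock genes had 0.31 at day 5 against -0.31 at day 0. The medians of lists were not tested between days.

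Among single genes, Rsad2 differed by -2.12 at day 5 and 1.27 at day 0. Sult1e1 differed by 2.72 at day 5 and -2.09 at day 2, and Cyp3a44 by 1.90 at day 5 and -1.92 at day 1. Phgdh differed by -2.34 at day 5 and 1.28 at day 2. Nup62 went from -1.98 at day 1 to 1.88 at day 5. Erdr1, a gene of the pseudoautosomal region, had 1.18 at day 2 and -2.78 at day 5. Fkbp8, an immunophilin, had 1.39 at day 2 and -1.94 at day 5, and Mettl27 had -1.59 at day 1 and 1.84 at day 5. Nrip2 swung most, from 4.35 at day 2 to -2.46 at day 5, on signals of 662, 1029, 50 and 1657 (control) and 194, 1050, 2396 and 243 (MET KO + EGFRi). Pou5f2 had 1.17 at day 1 and -2.46 at day 5, and Siglecg, a receptor of B cells, had 1.18 at day 2 and -1.72 at day 5. Shh, which encodes the ligand Sonic hedgehog, alternated, with 1.92, -1.15, 1.26 and -1.80 over the 4 days. Erdr1, Fkbp8, Mettl27, Nrip2, Pou5f2, Shh, Siglecg, Sult1e1 and Cyp3a44 each had no other probe set above the filter to compare with.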

How the results depend on the processing

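Each arm and day is 1 pooled array, so no value at day 5 has a replicate error, and counts of weak genes moved with the pseudocount and filter. The count of genes at least 2-fold higher, 272, became 122 with the median of all values as pseudocount, 605 with no filter, 108 with an upper quartile filter and 181 with the mean of a gene's probe sets, and the count 2-fold lower, 262, became 129, 619, 96 and 157. The acute phase median became 0.79 with the upper quartile filter and 0.79 without genes for which another probe set above the filter went the other way, the latter chosen after seeing the data. The core clock median became 0.60 with no pseudocount and 0.69 with the upper quartile filter. Without s_at and x_at probe sets, Mt1 was -0.87, Nup62 -0.27 and Acaa2 0.26, the opposite of the values above. A further 5 values, of genes under 2-fold (Actb, Adgre1, Cdkn1a, Cyp2b10 and Met), changed sign or came to 0, and the remaining 1267 of 1275 values of 170 named genes kept their sign. The interferon median ran from -0.53 to -0.43, that of DNA replication from 0.20 to 0.34, and those of G2/M genes, from -0.082 to 0.059, and of phase I enzymes, from -0.039 to 0.079, changed sign. The interaction gave 0 genes past the adjusted threshold in 17 settings, including each fit that left out 1 array of days 0 to 2 (0 to 0), where 498 to 998 genes had an unadjusted p under 0.05. The smallest limma adjusted p over these settings was 0.088. The causes of these shifts were not tested. No paired analysis was possible because each group holds 1 array, so no replicate number pairs arrays beyond the day, which the interaction fit already holds as a term.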
